A study of Mus musculus with 11 samples.

Results

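Hemogenic endothelium (HE) was compared here with endothelium negative for a Runx1 reporter (Endo), both from the major arteries of the E10.5 mouse embryo. The comparison covered all genes expressed in either population. A gene was taken as expressed when it had at least 1 FPKM (fragments scaled by transcript length and by the number of mapped fragments) in both libraries of HE or in both libraries of Endo. Of 37820 gene IDs in the expression table, 12315 met this rule. Among these, 11288 passed in both populations, 743 passed in HE alone and 284 passed in Endo alone. The floor fell in a densely filled range of low values: 168 genes entered with 1 to 1.1 FPKM in their lower library, and 201 genes stayed out with 0.9 to 1 FPKM. Most of the expressed genes (11641, 94.5%) were annotated as protein-coding, and 229 were pseudogenes, 199 lincRNAs and 31 snoRNAs.

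HE cells are the endothelial cells from which blood stem and progenitor cells bud into the lumen of the embryonic arteries, a process called the endothelial-to-hematopoietic transition. The transcription factor Runx1 is required for it, and its expression marks the endothelial cells that are set to make blood. Cells on the way through it keep endothelial adhesion and receptor genes while they begin to express blood regulators such as Gfi1, which silences endothelial genes. The arteries in which this happens also hold smooth muscle and mesenchymal cells in and around the wall, circulating red cells, and, near the dorsal aorta at this stage, primordial germ cells on their way to the genital ridges.

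Both populations were sorted at E10.5 from pooled embryos, from the aorta-gonad-mesonephros region together with the umbilical and vitelline arteries. HE cells were CD31+ and Runx1:GFP+, with low or no Kit on their surface, and Endo cells were CD31+, Runx1:GFP- and Kit-. Both gates excluded CD45+ and CD41+ cells. The embryos of both populations carried a GFP reporter in the endogenous Runx1 locus, so that GFP reports transcription of Runx1 itself. The labels give the strain as B6129SF1, and the study's methods describe a cross of B6C3F1 females with Runx1-GFP males. HE had 2 libraries and Endo had 2. The other 7 libraries of the table entered the shared estimate of spread, the choice of the genes tested and the F test described below. They were 3 of pre-HSCs, the stage that comes after HE, and 2 of fetal liver HSCs from E14.5. The last 2 were of bone marrow HSCs from adults of 6 to 8 weeks. The pre-HSCs are labelled as E10.5, whereas the study's methods place them a day later and describe them as Kit+ Ly6a:GFP+ cells of Ly6a:GFP embryos. Poly(A)-selected RNA was sequenced. The study describes the 2 libraries of HE and the 2 of Endo as biological replicates of sorted cells from pooled embryos. It does not say how litters or sorts were divided between them. The p-values below measure the spread between libraries of such pools, estimated over all 5 populations and not from HE and Endo alone.

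Each difference is given as the log2 fold change HE minus Endo, the difference between population means on the log2(FPKM + 1) scale, with its standard error. This scale understates the change of genes with low values. The test was limma's moderated test over 14708 genes and 11 libraries with Benjamini-Hochberg adjustment, and a gene was called when it differed at least 2-fold with an adjusted p under 0.05 and an adjusted p under 0.01 in the F test over the 5 populations. The words rose and fell are kept for called genes. FPKM values carry no read counts, so the depth behind each value is unknown. A value of exactly 0 can be a failed estimate.

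The 2 populations had the endothelial identity of their labels. Pecam1, which encodes the CD31 antigen of the gate, had 191 and 178 FPKM in HE and 207 and 218 FPKM in Endo. All 8 endothelial markers were above 1 FPKM in all 4 libraries, and their summed level was 1735 and 1632 FPKM in HE and 2136 and 2055 FPKM in Endo. Runx1 had 3.74 and 3.13 FPKM in HE and 0.805 and 0.956 FPKM in Endo, a log2 fold change of 1.24 ± 0.18 (adjusted p = 0.0359). This checks the gate and is no finding, because GFP from the Runx1 locus separated the populations. The 8 hemogenic markers, Runx1 included, summed to 177 and 167 FPKM in HE and 220 and 193 FPKM in Endo. Most of each sum was Lmo2, which is given below. Of the 8 markers, 4 were higher and 2 lower in both HE libraries. Kit, the receptor for stem cell factor, had 8.79 and 10.8 FPKM in HE and 7.55 and 10.8 FPKM in Endo, and the libraries overlapped. Ptprc, which encodes CD45, stayed under 0.1 FPKM in all 4 libraries. Itga2b, which encodes CD41, had 5.99 and 6.802 FPKM in HE and 3.88 and 5.003 FPKM in Endo although CD41+ cells were gated out.

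Transcripts of other cell types were present in both populations at levels that were not equal. Summed over 5 red cell markers, globin genes included, HE had 7104 and 9327 FPKM and Endo had 6449.6 and 6707 FPKM. The 4 smooth muscle markers summed to 485 and 454 FPKM in HE and 115 and 102 FPKM in Endo, with all 4 higher in both HE libraries. The 5 germ cell markers summed to 17.7 and 16.3 FPKM in HE and 106 and 78.8 FPKM in Endo, with 4 of them lower in both HE libraries. The 4 epithelial markers summed to 407 and 198 FPKM in HE and 42.9 and 145 FPKM in Endo, and the 4 mesenchymal markers to 62.1 and 72.9 FPKM in HE and 25.2 and 49.5 FPKM in Endo. In the epithelial and mesenchymal sums Endo 1 was far below Endo 2. Markers of macrophages and megakaryocytes were low in both populations. In RNA from many cells, more cells of a type and more RNA per cell cannot be told apart.

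The 2 populations were close over the whole of their expressed genes. The median log2 fold change of the 12315 genes was 0.02, with a median standard error of 0.22, and 6567 genes (53.3%) were higher in HE on average. Both HE libraries were above both Endo libraries for 2663 genes (21.6%) and below both for 1786 (14.5%). A difference of at least 2-fold with no overlap between the populations was found for 307 genes higher in HE and 57 lower. Over all 14708 genes tested, 2.13% were higher in this way and 0.415% lower. Of the 307 genes 183 passed the expression floor in both populations, and of the 57 genes 13 did. The rest passed in HE alone or in Endo alone, which favors a higher mean there, so the rule sets part of these counts. Replicates of 1 population were also often 2-fold apart: 294 of the expressed genes between HE 1 and HE 2, and 260 between Endo 1 and Endo 2. Between the means of HE and Endo on the same scale, 382 genes were 2-fold apart. Among the 307 genes higher in HE, Endo 1 was below Endo 2 in 83.7%, against 60.4% of all expressed genes, and without Endo 1 their number was 184.

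**Figure D1:**
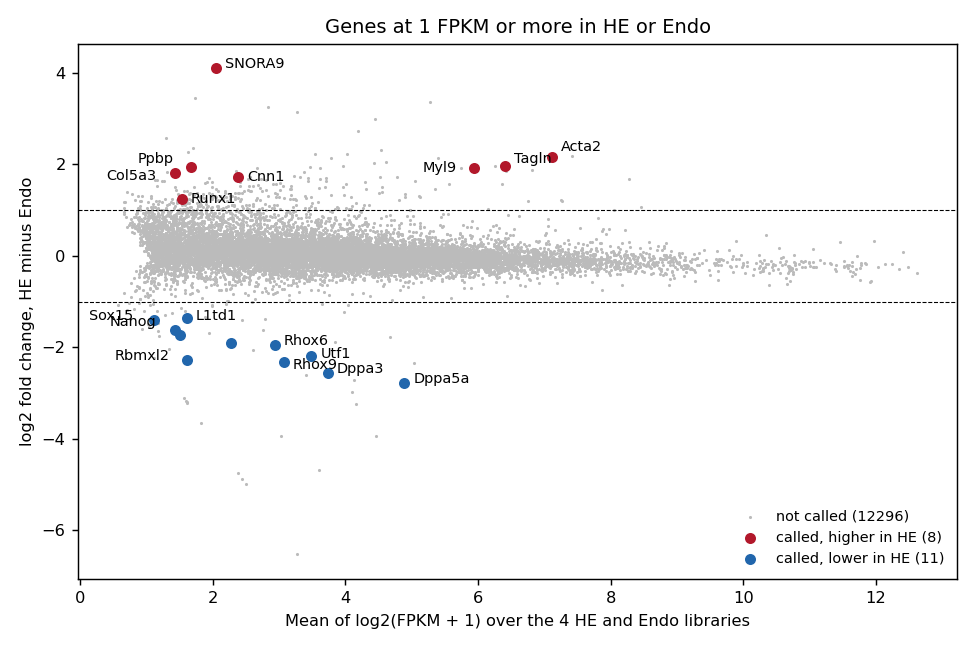
Log2 fold change HE minus Endo against the mean expression of the 4 libraries, both on the log2(FPKM + 1) scale, for the 12315 expressed genes. Grey points are the 12296 genes that were not called, red points the 8 that rose in HE and blue points the 11 that fell, and the cloud is centred on a median of 0.02.

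The test called 8 genes as higher in HE and 11 as lower, 0.0544% and 0.0748% of the genes tested. Without adjustment, limma's p under 0.05 together with the 2-fold limit, chosen after the data were seen, was met upward by 1.99% of the genes tested and downward by 0.299%. Of the 19 called genes 16 were protein-coding. The 8 that rose were Acta2, Tagln, Myl9, Cnn1, Col5a3, Ppbp, Runx1 and the small nucleolar RNA SNORA9. The 11 that fell were Dppa5a, Dppa3, Rhox9, Rhox6, Rbmxl2, Utf1, Nanog, Sox15, L1td1 and the unannotated IDs ENSMUSG00000093611 and ENSMUSG00000093516. The genes that rose thus included 4 of the smooth muscle contractile apparatus, and 9 of those that fell were on a list of pluripotency and germ cell genes. Few calls outlasted the loss of a library: of the 19, 7 were still called without HE 1, 2 without HE 2 (SNORA9 and Rbmxl2), 1 without Endo 1 (SNORA9) and 10 without Endo 2. None of the 19 changed direction in those fits. After quantile normalization 5 genes were called as higher and 15 as lower. With a pseudocount of 0.1 in place of 1, 10 genes were called as higher and 0 as lower, and 4 of the 10 were among the 19. With 2 libraries against 2, an exact permutation test of a single gene cannot give a p below 0.333, so calls from fitting all genes rest on the spread shared with the other populations.

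Genes of the contractile apparatus were higher in HE as a group. Of 21 expressed genes of this list, 19 had a higher mean in HE. There were 14 (66.7%) with both HE libraries above both Endo libraries, beside 21.6% of all expressed genes. Of these 14, 9 were at least 2-fold apart, and 4 genes of the list were called. The median log2 fold change of the list was 0.93, beside 0.02 for all expressed genes. Of the 21, 3 passed the expression floor in HE alone. Smooth muscle cells contract through actin and myosin filaments, and their actin, tropomyosin and calponin genes are used as markers of the cells of the arterial wall.

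Acta2, which encodes smooth muscle alpha-actin and lies at chr19:34315580-34329826 of build mm9, had 303 and 284 FPKM in HE and 67.8 and 61.1 FPKM in Endo. Both HE libraries were more than 4-fold above both Endo libraries on the FPKM scale, and the log2 fold change was 2.17 ± 0.22 (limma adjusted p = 0.0092). Tagln, which encodes the actin-binding protein transgelin, had 172 and 159 FPKM in HE and 45.01 and 38.8 FPKM in Endo (1.96 ± 0.25, adjusted p = 0.0251). Myl9, a regulatory light chain of smooth muscle myosin, had 117 and 119 FPKM in HE and 31.8 and 28.96 FPKM in Endo (1.92 ± 0.25, adjusted p = 0.0267). Cnn1, or calponin, which binds actin and tropomyosin in smooth muscle, had 8.31 and 8.64 FPKM in HE and 2.36 and 1.48 FPKM in Endo (1.71 ± 0.24, adjusted p = 0.0359). The replicates of each population lay close together for these 4 genes compared with the distance between the populations. Each lost its call without at least 1 library: leaving out each HE or Endo library in turn gave adjusted p from 0.0423 to 0.121 for Acta2, 0.0838 to 0.262 for Tagln, 0.0869 to 0.262 for Myl9 and 0.0943 to 0.275 for Cnn1. The fold changes in those fits stayed between 2.10 and 2.25 for Acta2 and between 1.49 and 1.93 for Cnn1. Without each library, 9 to 10 genes of the list were at least 2-fold higher in HE with no overlap.

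Other genes of the contractile list differed as much without passing the test. Actc1, the cardiac actin that embryonic smooth muscle also expresses, had 75.01 and 102 FPKM in HE and 20.4 and 17.6 FPKM in Endo (2.15 ± 0.40, adjusted p = 0.121). Des, the intermediate filament protein desmin, had 11.6 and 13.1 FPKM in HE and 3.86 and 3.91 FPKM in Endo (adjusted p = 0.0702). Tpm2, a tropomyosin, had 81.6 and 80.5 FPKM in HE and 27.2 and 25.8 FPKM in Endo. In all 3 genes both HE libraries were above both Endo libraries. Tpm1, another tropomyosin, was among the most abundant genes of the list with 296 and 300.1 FPKM in HE and 161 and 176 FPKM in Endo, a log2 fold change of 0.82 ± 0.14 (adjusted p = 0.088). The other tested members ran from Actg2 (log2 fold change 1.46) and Myh11 (1.20), a smooth muscle actin and the smooth muscle myosin heavy chain, to Cald1 (0.01), Csrp1 (0.03), Cnn2 (-0.02) and Smtn (-0.05), for which the populations overlapped. The contractile genes were thus not shifted by a common factor. Srf, the transcription factor that drives many smooth muscle genes, had 29.97 and 31.00 FPKM in HE and 22.7 and 30.5 FPKM in Endo, and its libraries overlapped. Its coactivator genes Mkl1 and Mkl2 had log2 fold changes of 0.31 and 0.52 and neither was called.

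The 4 called contractile genes were also measured in the pre-HSC libraries. Acta2 had 87.2, 50.2 and 60.8 FPKM in the 3 pre-HSC libraries, Tagln 36.4, 20.5 and 30.3 FPKM, Myl9 44.4, 25.1 and 25.4 FPKM and Cnn1 1.804, 0.939 and 1.705 FPKM. In each of the 4 genes all 3 pre-HSC libraries lay below both HE libraries. These values are a description, since the comparison of pre-HSC with HE shares the HE libraries and was not tested here. The part of smooth muscle cells in the HE libraries was also not tested.

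Serum response factor binds a short A- and T-rich element called the CArG box, and the promoters of contractile genes were searched for it. In promoter windows of 300 bases, 250 before and 50 after each RefSeq transcript start (build GRCm38.p6), a CArG box in its strict form (a pair of C, 6 letters that are each A or T, and a pair of G, which reads the same way on both strands) was found in 1.63% of 32851 promoters. Of 15 contractile genes with a promoter in the RefSeq set, 4 held a match, and of the 192 with a promoter among the genes at least 2-fold higher in HE with no overlap, 6 did. The windows of the called genes Acta2 and Cnn1 held 0 matches and are not printed. The windows of Myl9 (chr2:156775214-156775513, plus strand, match starting at -161) and Actc1 (chr2:114052826-114053125, minus strand, match starting at -47) are printed with the match in capitals.
Myl9: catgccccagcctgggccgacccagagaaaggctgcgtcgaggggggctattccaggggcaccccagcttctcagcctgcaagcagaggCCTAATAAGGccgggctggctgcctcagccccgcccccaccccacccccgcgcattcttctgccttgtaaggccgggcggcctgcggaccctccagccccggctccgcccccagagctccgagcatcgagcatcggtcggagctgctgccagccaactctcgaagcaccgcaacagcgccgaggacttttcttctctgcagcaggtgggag
Actc1: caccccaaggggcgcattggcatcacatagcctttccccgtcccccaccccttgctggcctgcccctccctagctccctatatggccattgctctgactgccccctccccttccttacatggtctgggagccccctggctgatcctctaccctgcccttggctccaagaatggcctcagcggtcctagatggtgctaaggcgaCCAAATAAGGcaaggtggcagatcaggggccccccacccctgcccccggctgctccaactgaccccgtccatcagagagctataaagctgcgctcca
Forms that differ by a letter were not counted, so a window without a match can hold a variant CArG box. A match is a letter pattern and not a measured binding site.

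**Figure D2:**
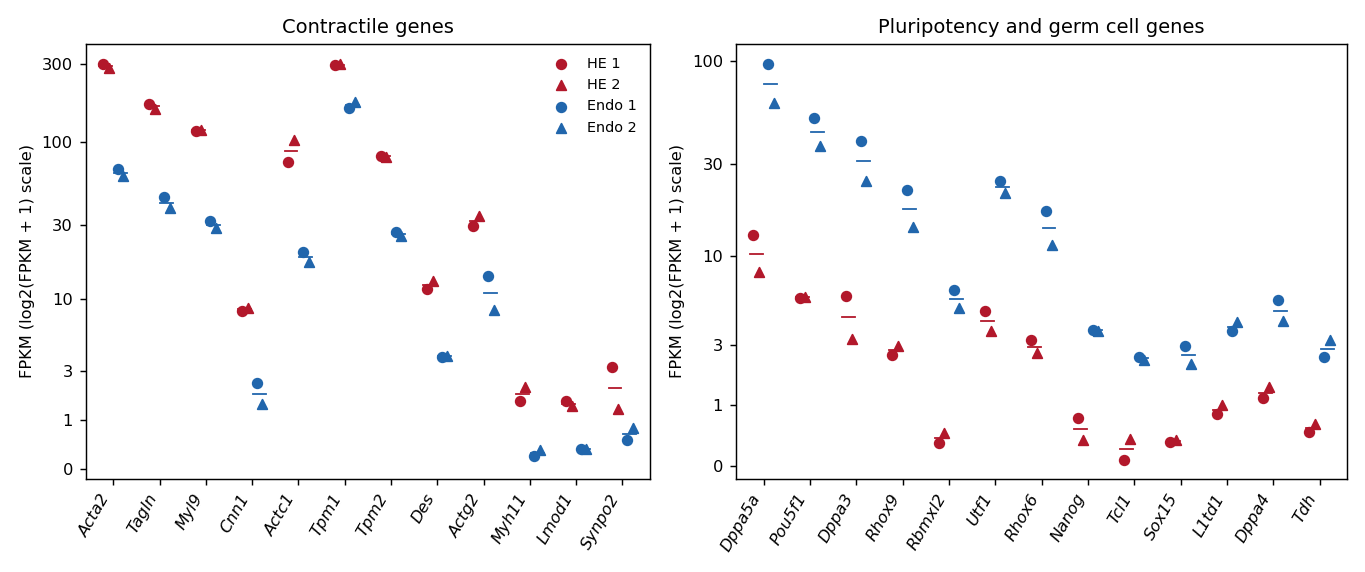
FPKM on a log2(FPKM + 1) scale in HE (left) and Endo (right) for 12 contractile genes and 13 pluripotency and germ cell genes, 1 point per library and 2 libraries per population. For Acta2 the HE points lie at 303 and 284 FPKM, above Endo at 67.8 and 61.1, and for Dppa5a the HE points lie at 12.96 and 8.08 FPKM, below Endo at 96.4 and 61.1.

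Pluripotency and germ cell genes were lower in HE. Of the 26 expressed genes of this list, 24 had a lower mean in HE. There were 23 (88.5%) with both HE libraries below both Endo libraries, beside 14.5% of all expressed genes. Of these 23, 16 were at least 2-fold apart, and 9 genes of the list were called. The median log2 fold change was -1.32. Of the 26, 18 passed the expression floor in both populations and 8 in Endo alone. These 8 had at least 1 HE library under the floor by the rule that chose them, which favors a lower mean there. Over all 29 tested genes of the list, expressed or not, the median was -1.08. Primordial germ cells, which lie along the hindgut and in the mesentery beside the aorta at this stage, keep many genes of the pluripotency network active.

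Dppa5a, which encodes an RNA-binding protein of pluripotent and early germ cells, had 12.96 and 8.08 FPKM in HE and 96.4 and 61.1 FPKM in Endo. It had the most negative log2 fold change of the called genes, -2.79 ± 0.27 (limma adjusted p = 0.00728). Dppa3, also called Stella, a germ cell marker that protects methylated DNA in the early embryo, had 5.98 and 3.27 FPKM in HE and 39.6 and 24.7 FPKM in Endo (-2.56 ± 0.29, adjusted p = 0.00961). Utf1, a chromatin-associated factor of pluripotent cells, had 4.87 and 3.66 FPKM in HE and 24.7 and 21.5 FPKM in Endo (-2.20 ± 0.24, adjusted p = 0.00961). In each of the 3 genes the lower Endo library was more than 4-fold above the higher HE library.

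Nanog, a core transcription factor of pluripotency at chr6:122657507-122664651 of build mm9, had 0.743 and 0.353 FPKM in HE and 3.73 and 3.67 FPKM in Endo (-1.61 ± 0.20, adjusted p = 0.0168). Sox15 encodes a transcription factor of the SRY-related family and had 0.317 and 0.348 FPKM in HE and 2.93 and 2.19 FPKM in Endo (-1.41 ± 0.20, adjusted p = 0.0359). Nanog and Sox15 were under the expression floor in both HE libraries. L1td1, a stem cell RNA-binding protein derived from a transposable element, had 0.813 and 1.01 FPKM in HE and 3.64 and 4.15 FPKM in Endo (-1.36 ± 0.19, adjusted p = 0.0359). Rbmxl2, a germ cell RNA-binding protein needed for meiosis in males, had 0.300 and 0.464 FPKM in HE and 6.45 and 5.08 FPKM in Endo (-2.29 ± 0.20, adjusted p = 0.00418). Both HE libraries were below 0.5 FPKM for this gene. Rhox6, an X-linked homeobox gene, had 3.19 and 2.63 FPKM in HE and 17.2 and 11.4 FPKM in Endo (-1.94 ± 0.23, adjusted p = 0.0136). Its neighbor Rhox9 had 2.56 and 2.93 FPKM in HE and 22.1 and 14.2 FPKM in Endo (-2.33 ± 0.25, adjusted p = 0.00961). The Rhox genes are a cluster of similar sequences. The study describes keeping only uniquely mapped reads, so reads that fit several copies may be missing from these values.

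Pou5f1, which encodes the pluripotency factor Oct4, had one of the largest differences of the list, with 5.804 and 5.87 FPKM in HE and 51.3 and 37.3 FPKM in Endo. Its log2 fold change was -2.71 ± 0.64, but the gene was not called (adjusted p = 0.225). Its standard error of 0.64 was larger than that of Dppa5a, 0.27, although its replicates lay closer together in HE and in Endo. Each standard error is set by the spread within all 5 populations, and not by HE and Endo alone. Tcl1 and Dppa4 were near the threshold with log2 fold changes of -1.49 and -1.35 (adjusted p = 0.0571 and 0.0611). Dnd1, a regulator of germ cell survival, had 2.24 and 2.44 FPKM in HE and 7.88 and 7.91 FPKM in Endo (-1.41 ± 0.30, adjusted p = 0.179). Sox2, a pluripotency factor that neural cells also use, had 7.14 and 9.38 FPKM in HE and 9.56 and 12.9 FPKM in Endo. Lin28a, an RNA-binding protein of embryonic cells, and Prdm1, a regulator of germ cell fate, are on the same list, and their libraries overlapped. Lin28a had 21.8 and 16.3 FPKM in HE and 11.95 and 21.7 FPKM in Endo. Prdm1 had 2.89 and 4.35 FPKM in HE and 3.52 and 5.14 FPKM in Endo.

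The direction of the group did not rest on 1 library. Without HE 1, HE 2, Endo 1 and Endo 2 in turn, 15 to 16 genes of the list were at least 2-fold lower with no overlap, and the median ran from -1.39 to -1.26. The number of called genes was less steady, with 0 at a pseudocount of 0.1, 5 without HE 1, 1 without HE 2, 0 without Endo 1 and 6 without Endo 2. In the fit without Endo 1 adjusted p was 0.0811 for Dppa5a and 0.144 for Dppa3. Whether germ cells, which express Kit on their surface, passed the Kit- gate of Endo was not tested. The part of germ cells in the Endo libraries was also not tested. In the 3 pre-HSC libraries Dppa5a had 0, 0 and 0 FPKM, Dppa3 0.341, 0.368 and 0.216 FPKM and Nanog 0, 0 and 0 FPKM.

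The Nanog promoter window (chr6:122707239-122707538 in build GRCm38.p6, plus strand) is printed as an example from the list. The element ACAATG, or CATTGT on the other strand, which SOX factors bind, was found in 12.6% of promoters and starts here at -67, in capitals.
Nanog: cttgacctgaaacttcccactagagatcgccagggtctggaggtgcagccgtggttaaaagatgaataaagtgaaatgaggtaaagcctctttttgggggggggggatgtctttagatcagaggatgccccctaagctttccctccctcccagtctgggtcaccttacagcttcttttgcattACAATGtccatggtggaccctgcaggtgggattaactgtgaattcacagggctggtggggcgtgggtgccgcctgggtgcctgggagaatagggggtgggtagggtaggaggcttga
An overlapping second Nanog window also holds a match, starting at -143. Of the 17 expressed genes of the list with a promoter in the RefSeq set, 4 (23.5%) held the element in any window. Counted by gene in the same way, 8.8% of 8448 expressed genes with a promoter held it. Whether Sox15 acts at the Nanog element was not tested. As for the CArG box, a match is not a measured binding site.

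Of 29 expressed transcription factors of early hematopoiesis, 17 were higher and 12 lower in HE. There were 9 (31.0%) with both HE libraries above both Endo libraries and 6 (20.7%) with both below, beside 21.6% and 14.5% of all expressed genes, and the 6 genes apart by at least 2-fold were all higher in HE: Gfi1, Runx1, Spi1, Gfi1b, Nfe2 and Meis1. Only Runx1, the gate gene, was called. Without adjustment 5 passed a p of 0.05 upward and 0 downward. The list's median log2 fold change was 0.10, and -0.04 without Endo 1. Of the 29 genes, 4 passed the expression floor in HE alone and 1 in Endo alone. Gfi1, Runx1 and Spi1 were under the floor in both Endo libraries, so the rule favors a higher mean in HE for them. Over all 33 tested genes of the list the median was 0.13.

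Gfi1, a repressor that Runx1 activates and that turns off endothelial genes, had 9.42 and 4.21 FPKM in HE and 0.498 and 0.361 FPKM in Endo. The HE libraries were themselves more than 2-fold apart, and the difference was not called (2.37 ± 0.49, 95% interval 1.27 to 3.47, limma adjusted p = 0.164). Its paralog Gfi1b had 10.1 and 3.16 FPKM in HE and 1.08 and 3.08 FPKM in Endo, so that HE 2 was close to Endo 2. Spi1, which encodes the myeloid factor PU.1, had 4.71 and 2.14 FPKM in HE and 0.649 and 0.974 FPKM in Endo (1.23 ± 0.37, adjusted p = 0.327). In all 3 genes HE 1 was the highest library and stood more than 2-fold above HE 2. Nfe2, a megakaryocyte and erythroid factor, had 4.43 and 4.93 FPKM in HE and 1.18 and 1.78 FPKM in Endo (adjusted p = 0.124). Meis1, a homeobox cofactor of HSCs, had 20.00 and 24.7 FPKM in HE and 7.802 and 13.3 FPKM in Endo (adjusted p = 0.225).

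Among factors that endothelium and blood share, Lmo2, Erg, Tal1 and Gata2 are given as examples picked after their values were seen. Lmo2, the bridging protein of the blood and endothelial transcription complex, had 117 and 125 FPKM in HE and 185 and 151 FPKM in Endo (-0.46 ± 0.16). Erg, an ETS factor of both lineages, had 28.6 and 30.3 FPKM in HE and 38.8 and 41.3 FPKM in Endo (-0.43 ± 0.18). Tal1, the partner of Lmo2, had 14.9 and 14.7 FPKM in HE and 16.1 and 17.6 FPKM in Endo. In these 3 genes both HE libraries were below both Endo libraries by less than 2-fold, and none was called. Gata2, which HE requires to make HSCs, had 16.8 and 14.1 FPKM in HE and 15.7 and 18.4 FPKM in Endo, with the libraries overlapping and a 95% interval of the difference of -0.45 to 0.18.

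Genes of early blood cell surface and signaling were mostly higher in HE. Of 15 expressed genes, 14 had a higher mean in HE. There were 12 (80%) higher without overlap, beside 21.6% of all expressed genes, and 2 of these were apart by at least 2-fold (Itgb3 and Gpr56). None was called, and 2 passed without adjustment. The median was 0.68, and 0.59 to 0.78 without each HE or Endo library in turn. Without Endo 1 the 2-fold count was 0. Of the 15 genes, 4 passed the floor in HE alone, and over all 24 tested genes of the list the median was 0.46.

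Gpr56, an adhesion receptor of HSCs, had 13.4 and 12.7 FPKM in HE and 4.81 and 6.27 FPKM in Endo (1.11 ± 0.19, adjusted p = 0.088). Cd44, the hyaluronan receptor, had 5.86 and 5.43 FPKM in HE and 2.44 and 2.41 FPKM in Endo (0.96 ± 0.17, adjusted p = 0.088). Itgb3, the integrin subunit that pairs with CD41, had 4.299 and 4.17 FPKM in HE and 0.993 and 1.73 FPKM in Endo (1.17 ± 0.24, adjusted p = 0.157). For these 3 genes the replicates of HE were within 1 FPKM of each other and both lay above Endo. Neurl3, a ubiquitin ligase reported in hemogenic endothelium, had 4.299 and 3.99 FPKM in HE and 2.14 and 1.76 FPKM in Endo. Procr, the protein C receptor of arterial endothelium and HSCs, had 33.2 and 24.9 FPKM in HE and 19.2 and 19.3 FPKM in Endo. Coro1a and Was, actin regulators of blood cells, had log2 fold changes of 0.89 and 0.70, with both HE libraries above both Endo libraries.

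Ppbp, a platelet chemokine at chr5:91197544-91199086 of build mm9, was the only blood lineage gene besides Runx1 that was called, with 4.92 and 5.66 FPKM in HE and 0.534 and 0.732 FPKM in Endo (1.95 ± 0.21, adjusted p = 0.00961). It was called in the fit without Endo 2 and in none of the other 3 fits that left out an HE or Endo library (adjusted p from 0.041 to 0.144 over the 4). Of 8 expressed genes of the megakaryocyte and platelet list, 5 were at least 2-fold higher with no overlap, and 3 without Endo 1. Since 4 of the 8 passed the floor in HE alone, much of this count is set by the rule, and the median was 1.13 over the 8 and 0.56 over all 17 tested genes of the list. Pf4, another platelet chemokine, had 3.12 and 16.3 FPKM in HE and 5.77 and 3.69 FPKM in Endo, with HE 1 below Endo 1. Clec1b, a platelet and lymphatic signaling receptor, had 67.5 and 68.6 FPKM in HE and 125 and 83.4 FPKM in Endo, lower in both HE libraries. The 4 megakaryocyte markers summed to 11.9 and 25.01 FPKM in HE and 10.1 and 9.16 FPKM in Endo. The 5 macrophage markers summed to 6.33 and 6.97 FPKM in HE and 4.91 and 3.64 FPKM in Endo. Of the 9 expressed genes of the macrophage and granulocyte list 6 passed the floor in HE alone, which favors a higher mean there, and 0 were called. Over all 20 tested genes of this list the median was 0.32. The erythroid list of 19 expressed genes had a median of 0.17, with 5 genes (26.3%) higher without overlap, beside 21.6% of all expressed genes, and 0 lower. The median was -0.0043 without HE 2, 0.05 without Endo 1 and 0.47 without HE 1. Embryonic beta-globin Hbb-y had 3951 and 5109 FPKM in HE and 3488 and 3717 FPKM in Endo. The part of platelet, macrophage and red cell RNA in the HE libraries was not tested.

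**Figure D3:**
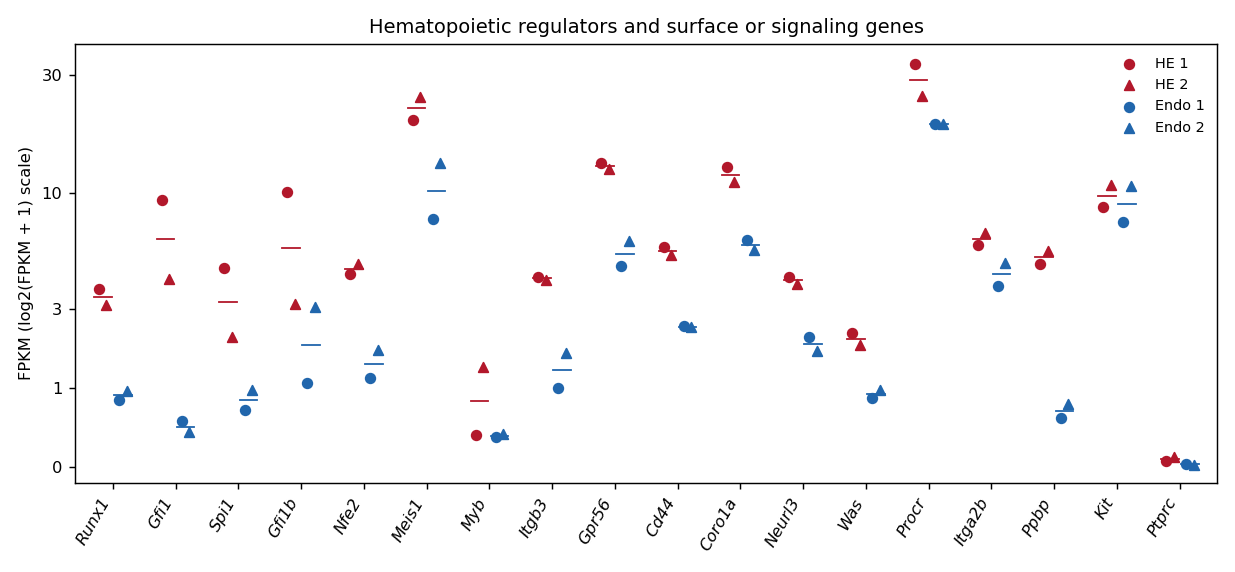
FPKM on a log2(FPKM + 1) scale in HE (left) and Endo (right) for 18 hematopoietic genes, 1 point per library and 2 libraries per population. Gfi1 stands at 9.42 and 4.21 FPKM in HE, against 0.498 and 0.361 in Endo, whereas the points of Kit, at 8.79 and 10.8 FPKM in HE and 7.55 and 10.8 in Endo, overlap.

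Endothelial genes had slightly lower means in HE. Of 30 pan-endothelial genes, all expressed, 29 had a lower mean in HE. There were 18 (60%) with both HE libraries below both Endo libraries, beside 14.5% of all expressed genes, and 0 with both above. None was 2-fold apart and none was called, with or without adjustment. The median log2 fold change was -0.23, and it ran from -0.30 to -0.16 without each HE or Endo library in turn. With FPKM scaled to equal library totals it was -0.12, where the median of all genes tested was 0.11.

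Cdh5, the VE-cadherin of endothelial junctions, had 292 and 301 FPKM in HE and 303 and 383 FPKM in Endo. Kdr, the main VEGF receptor, had 119.6 and 145 FPKM in HE and 124 and 187 FPKM in Endo. Tek, the angiopoietin receptor, had 39.9 and 48.4 FPKM in HE and 47.9 and 55.1 FPKM in Endo. For Cdh5 the populations did not overlap, whereas Kdr and Tek overlapped. Emcn, a surface sialomucin stronger in veins and capillaries, had 223 and 216 FPKM in HE and 307 and 266 FPKM in Endo. Plvap, the diaphragm protein of endothelial pores, had 511 and 440.5 FPKM in HE and 662 and 627 FPKM in Endo. The difference was largest for Cldn5, the tight junction claudin of endothelium, with 464 and 380.0 FPKM in HE and 681 and 504 FPKM in Endo (-0.48 ± 0.30, 95% interval -1.16 to 0.20). All of these genes stayed strongly expressed in both populations.

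Arterial and venous genes did not separate by a common factor. The 17 expressed arterial genes had a median log2 fold change of 0.10, with 11 higher and 6 lower, and 1 gene without overlap in each direction. Without HE 1 the median was -0.04. Gja5, connexin 40 of arterial endothelium, had 70.7 and 40.3 FPKM in HE and 45.4 and 23.8 FPKM in Endo (0.68 ± 0.39), with HE 2 below Endo 1. Hey2, a Notch target of arterial fate, had 5.65 and 3.43 FPKM in HE and 3.35 and 1.86 FPKM in Endo. Only Hey2 of these had both HE libraries above both Endo libraries, and HE 2 was close to Endo 1. Dll4, the arterial Notch ligand, had 38.3 and 26.7 FPKM in HE and 35.3 and 31.6 FPKM in Endo. Efnb2, the arterial ephrin, had 43.6 and 43.6 FPKM in HE and 34.2 and 47.00 FPKM in Endo. Neither Dll4 nor Efnb2 separated the populations. The 8 venous genes all had a lower mean in HE, with 4 (50%) below without overlap, beside 14.5% of all expressed genes. Their median was -0.29, and it was -0.44 without Endo 1 and -0.18 without HE 1. Lyve1, a hyaluronan receptor of lymphatic and yolk sac endothelium, had 2.31 and 3.16 FPKM in HE and 4.697 and 6.69 FPKM in Endo (-0.84 ± 0.40, adjusted p = 0.671). Nr2f2, the factor that sets venous fate, had 15.6 and 24.7 FPKM in HE and 17.04 and 26.7 FPKM in Endo.

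Of the Notch pathway, 20 genes were expressed. Notch1, the receptor needed for HSC formation, had 18.1 and 22.9 FPKM in HE and 17.8 and 26.2 FPKM in Endo. Notch4, an endothelial receptor, had 86.4 and 58.5 FPKM in HE and 68.9 and 78.6 FPKM in Endo. Both overlapped between the populations, while Notch2 and Notch3, receptors that mural cells use, were higher in HE without overlap. Notch2 had 3.48 and 5.47 FPKM in HE and 1.16 and 2.96 FPKM in Endo. Notch3 had 11.7 and 13.7 FPKM in HE and 5.56 and 10.02 FPKM in Endo. Heyl, a Notch target of smooth muscle, had 4.34 and 7.39 FPKM in HE and 1.52 and 3.01 FPKM in Endo (1.08 ± 0.33), and was also higher in both HE libraries. Mfng, a glycosyltransferase that tunes ligand choice, had 70.2 and 60.5 FPKM in HE and 104 and 79.3 FPKM in Endo (-0.48 ± 0.15). The non-canonical ligand Dlk1 had the largest log2 fold change of the list with 597 and 518 FPKM in HE and 103 and 289 FPKM in Endo (1.68 ± 0.39, adjusted p = 0.222), but Endo 1 and Endo 2 were more than 2-fold apart. Of the 20 genes, 5 (25.0%) were higher and 2 (10%) lower without overlap, beside 21.6% and 14.5% of all expressed genes, and 0 were called. The 2 that were at least 2-fold higher, Dlk1 and Heyl, were under 2-fold without Endo 1.

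Among growth factors of vessels, Pgf, the placental growth factor, had 6.199 and 4.69 FPKM in HE and 1.47 and 1.73 FPKM in Endo (1.30 ± 0.23, adjusted p = 0.088). Angpt2, the angiopoietin of vessel remodeling, had 2.12 and 7.41 FPKM in HE and 1.74 and 1.92 FPKM in Endo (0.86 ± 0.38). Both were higher in both HE libraries and neither was called. The whole list of 20 VEGF and angiopoietin genes had a median of -0.11, 7 higher and 13 lower, and the median was 0.13 without Endo 2. The 12 genes that respond to blood flow had a median of -0.20, with Klf2, the main flow-responsive factor of endothelium, at 74.3 and 52.3 FPKM in HE and 83.5 and 74.5 FPKM in Endo.

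Most matrix genes had a higher mean in HE, and their level was also uneven between the Endo libraries. Of 37 expressed extracellular matrix genes, 29 had a higher mean in HE. Without overlap, 19 (51.4%) were higher and 3 (8.1%) lower, beside 21.6% and 14.5% of all expressed genes. Of the 19, 11 were at least 2-fold higher. Col5a3, a fibrillar collagen chain at chr9:20574494-20619511 of build mm9, was called with 3.26 and 4.97 FPKM in HE and 0.302 and 0.593 FPKM in Endo (1.81 ± 0.24, adjusted p = 0.0281). It was called in none of the 4 fits that left out an HE or Endo library (adjusted p from 0.0641 to 0.317). Col1a1, the main chain of type I collagen, had 356 and 370.1 FPKM in HE and 32.8 and 187 FPKM in Endo (2.19 ± 0.68, adjusted p = 0.347). Col1a2, the partner chain, had 147 and 175 FPKM in HE and 19.4 and 81.1 FPKM in Endo. For these collagens Endo 2 stood several-fold above Endo 1. Endo 1 was the lowest of the 4 libraries for 28 of the 37 genes. Eln, or elastin, had 5.59 and 5.897 FPKM in HE and 1.75 and 1.97 FPKM in Endo. Fn1, fibronectin, had 119 and 146 FPKM in HE and 58.3 and 89.01 FPKM in Endo. Col4a1 and Col4a2, the type IV collagens of basement membranes, had log2 fold changes of -0.02 and 0.11. Lama4, a laminin of endothelial basement membrane and the most negative of the list, had 34.3 and 41.6 FPKM in HE and 61.2 and 45.2 FPKM in Endo, lower in both HE libraries. Without Endo 1, 7 matrix genes were 2-fold higher without overlap, and without Endo 2, 14.

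The mural and mesenchymal list had a median of 0.69 over 22 expressed genes. Without overlap, 15 (68.2%) were higher and 1 (4.5%) lower, beside 21.6% and 14.5% of all expressed genes. Of the 15, 8 were at least 2-fold higher, and 0 genes of the list were called (8 without adjustment). The median was 0.43 without Endo 1 and 1.13 without Endo 2. Pdgfrb, the PDGF receptor of pericytes and smooth muscle, had 9.29 and 13.8 FPKM in HE and 2.41 and 5.73 FPKM in Endo (1.37 ± 0.42, adjusted p = 0.344). Postn, the matrix protein periostin, had 131 and 171 FPKM in HE and 19.2 and 73.2 FPKM in Endo (1.96 ± 0.65, adjusted p = 0.387). Endo 1 was the lowest library for 18 of the 22 genes, these included. Rgs5, a pericyte regulator of G-protein signaling, had 3.81 and 4.205 FPKM in HE and 1.198 and 1.48 FPKM in Endo. Vim, the intermediate filament of mesenchymal and endothelial cells, had 1182 and 1156 FPKM in HE and 1659.7 and 1388 FPKM in Endo, lower in both HE libraries.

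The epithelial list had the highest median of all, 1.53 over 13 expressed genes, all with a higher mean in HE. Without overlap, 10 (76.9%) were higher and 0 lower, beside 21.6% and 14.5% of all expressed genes. Of the 10, 9 were at least 2-fold higher, and 0 genes of the list were called (9 without adjustment). Of the 13, 2 passed the floor in HE alone, and over all 14 tested genes of the list the median was 1.47. Krt8, a keratin of simple epithelia, had 233 and 112 FPKM in HE and 23.5 and 82.2 FPKM in Endo (1.85 ± 0.54, adjusted p = 0.315). Krt18, its partner, had 152 and 70.5 FPKM in HE and 13.9 and 50.3 FPKM in Endo. Cldn6, a claudin of embryonic epithelia, had 37.5 and 20.7 FPKM in HE and 2.31 and 11.9 FPKM in Endo (2.14 ± 0.67, adjusted p = 0.347). In all 3 genes the HE libraries were apart from each other and Endo 1 was several-fold below Endo 2. Epcam, an epithelial adhesion molecule, had 11.6 and 8.72 FPKM in HE and 4.38 and 8.39 FPKM in Endo. Cdh1, E-cadherin, had 10.3 and 6.25 FPKM in HE and 1.16 and 4.35 FPKM in Endo. Wt1, a factor of the coelomic epithelium and mesonephros beside the aorta, had 3.96 and 5.08 FPKM in HE and 0.867 and 2.63 FPKM in Endo. The list's median was 0.83 without Endo 1 and 2.23 without Endo 2. The part of epithelial cells was not tested.

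**Figure D4:**
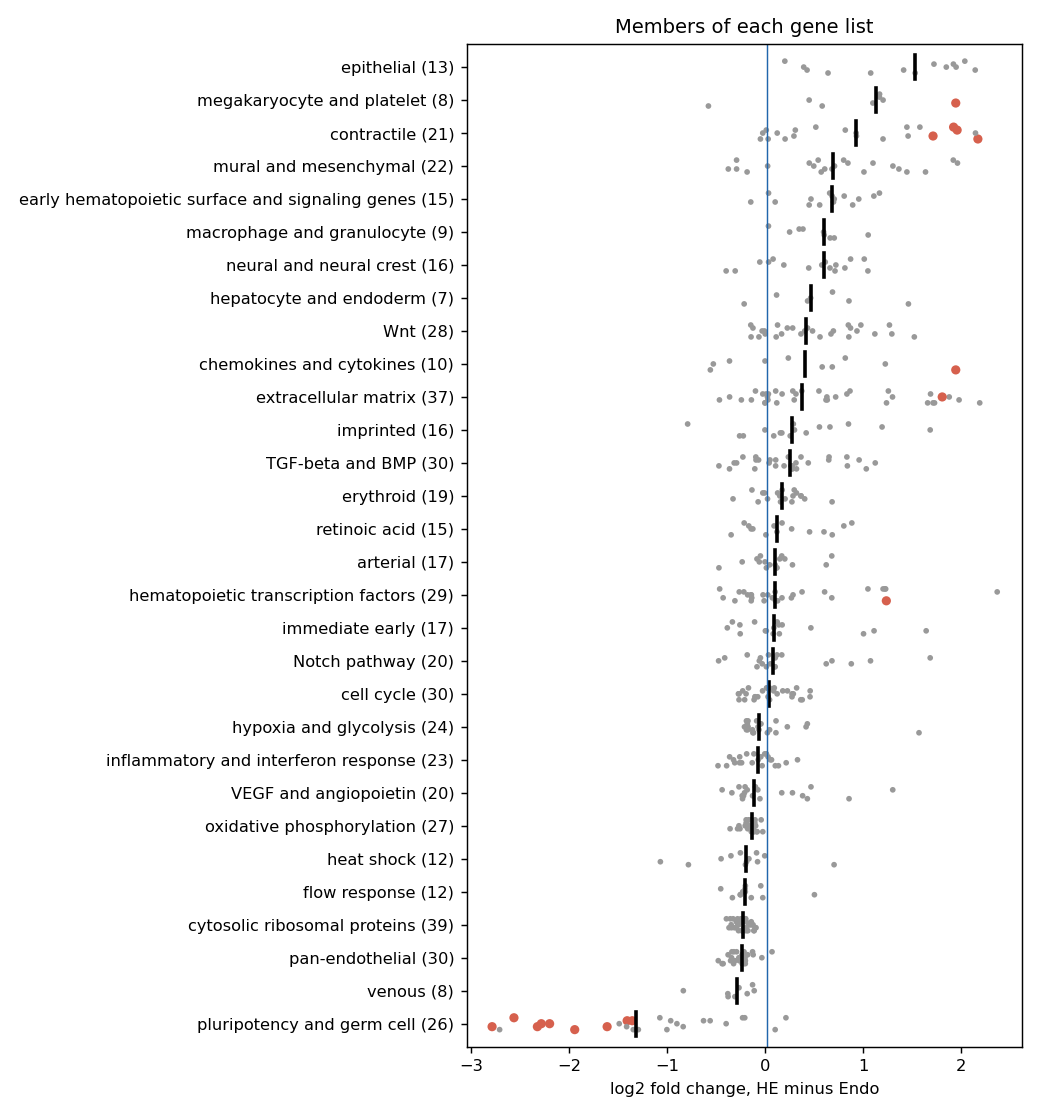
Log2 fold change HE minus Endo, on the log2(FPKM + 1) scale, of the expressed genes of each gene list, 1 grey point per gene, with called genes in red and the list median as a tick. The blue line is the median of all expressed genes, 0.02, and the pluripotency and germ cell list lies lowest with a median of -1.32, the epithelial list highest with 1.53.

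Signaling genes of the vessel wall showed a few large differences and no calls. In the Wnt list of 28 expressed genes, 14 (50%) were higher and 2 (7.1%) lower without overlap, beside 21.6% and 14.5% of all expressed genes. The list's median was 0.42. Those at least 2-fold higher without overlap were the ligands Wnt2 and Wnt4, the secreted antagonist Sfrp1 and the receptor Fzd2. Wnt2 had 15.3 and 11.2 FPKM in HE and 3.06 and 4.94 FPKM in Endo. Wnt4 had 6.38 and 4.21 FPKM in HE and 0.965 and 2.26 FPKM in Endo. Sfrp1 had 12.96 and 18.5 FPKM in HE and 4.26 and 7.94 FPKM in Endo. In Wnt4 and Sfrp1 the Endo libraries were apart from each other, with Endo 1 the lower. Fzd2 had 27.5 and 27.98 FPKM in HE and 8.75 and 16.9 FPKM in Endo. The intracellular mediator Ctnnb1, beta-catenin, had a log2 fold change of -0.03 (95% interval -0.35 to 0.29). For Wnt2, Wnt4, Sfrp1 and Fzd2 adjusted p was 0.199, 0.243, 0.243 and 0.286. Endo 1 was the lowest library in 21 of the 28 genes, and the list's median was 0.14 without Endo 1.

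The TGF-beta and BMP list had a median of 0.25 over 30 genes, and 0.05 without Endo 1. Its ligand gene Tgfb3 was at least 2-fold higher without overlap, with 3.51 and 5.71 FPKM in HE and 1.06 and 2.096 FPKM in Endo. Bmp4, a ligand from the tissue beneath the aorta, had 18.2 and 20.3 FPKM in HE and 13.4 and 16.2 FPKM in Endo. Nog, which encodes the BMP antagonist noggin, and Bmp4 were higher in both HE libraries by less than 2-fold on the tested scale. Nog had 3.497 and 1.81 FPKM in HE and 0.690 and 1.35 FPKM in Endo. Eng, the endothelial coreceptor endoglin, and Acvrl1, the endothelial type I receptor ALK1, were lower in both HE libraries. Eng had 191 and 143 FPKM in HE and 204 and 201 FPKM in Endo. Acvrl1 had 49.8 and 48.1 FPKM in HE and 69.9 and 66.7 FPKM in Endo. The Smad genes had log2 fold changes from -0.32 (Smad4) to 0.27 (Smad7).

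Of the retinoic acid list, Aldh1a2, the main retinoic acid synthesizing enzyme of the trunk, had 15.8 and 17.2 FPKM in HE and 7.82 and 12.4 FPKM in Endo. Crabp2, a retinoic acid carrier, had 133 and 104 FPKM in HE and 59.2 and 67.7 FPKM in Endo. The list's median was 0.12 over 15 genes, with 0 calls, and -0.03 without Endo 1. Cxcl12, the chemokine that holds HSCs in their niche, had 35.1 and 50.3 FPKM in HE and 12.9 and 23.3 FPKM in Endo (1.23 ± 0.34, adjusted p = 0.29). Its receptor gene Cxcr4 had 16.1 and 19.9 FPKM in HE and 23.7 and 13.5 FPKM in Endo, with the libraries overlapping. Kitl, the ligand of Kit, had 9.62 and 14.5 FPKM in HE and 17.5 and 17.5 FPKM in Endo, lower in both HE libraries. Inflammatory and interferon genes, which are studied as signals for HSC formation, had a median of -0.07 over 23 genes, 8 higher and 15 lower, with 0 called and 0 apart by 2-fold. The Toll-like receptors Tlr3 and Tlr4 were lower in both HE libraries. Tlr3 had 0.793 and 1.72 FPKM in HE and 1.85 and 1.95 FPKM in Endo. Tlr4 had 1.59 and 2.12 FPKM in HE and 2.17 and 2.56 FPKM in Endo.

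Genes of general cell state differed little between HE and Endo. All 39 cytosolic ribosomal protein genes had a lower mean in HE, with a median of -0.23. Only 3 of them (7.7%) were lower without overlap, beside 14.5% of all expressed genes. Their summed level was 87644 and 70953 FPKM in HE and 114435 and 74629 FPKM in Endo, so that Endo 1 stood above the other 3 libraries, and the median was 0.06 without Endo 1 and -0.52 without Endo 2. All 27 oxidative phosphorylation genes also had a lower mean in HE, with a median of -0.13 and 4 (14.8%) without overlap, beside 14.5% of all expressed genes, and the median was 0.00 without Endo 1 and -0.34 without Endo 2. The cell cycle list had a median of 0.04 over 30 genes. Without overlap, 6 (20%) were higher and 7 (23.3%) lower, beside 21.6% and 14.5% of all expressed genes. Within it the mitotic genes Plk1 and Aurkb were higher and the replication genes Mcm6 and Pcna lower in both HE libraries, with log2 fold changes of 0.46, 0.46, -0.21 and -0.27. None of these was called.

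**Figure D5:**
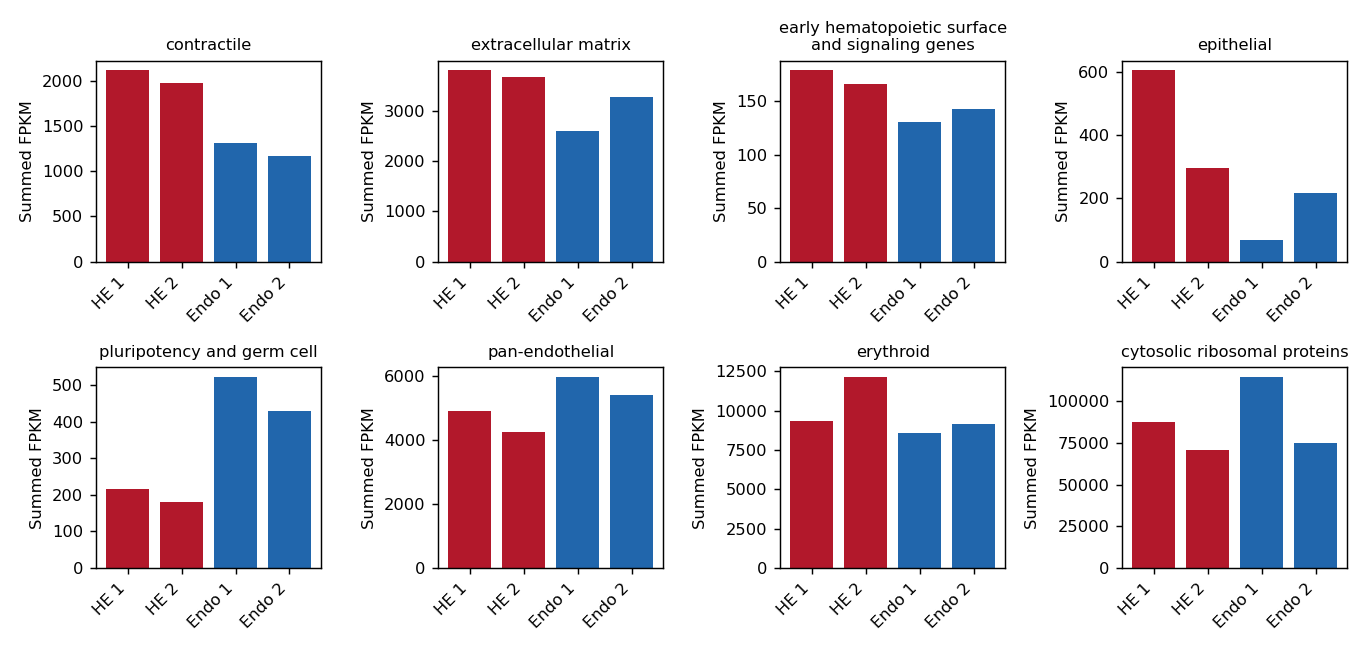
Summed FPKM of the expressed genes of 8 lists in each library, with HE 1 and HE 2 left of Endo 1 and Endo 2 and a linear axis starting at 0 in each panel. The contractile sum is higher in both HE libraries and the pluripotency and germ cell sum higher in both Endo libraries, while the matrix and epithelial sums are lowest and the ribosomal protein sum highest in Endo 1.

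Genes that respond to handling of cells were not uniform. Of 17 immediate early genes the median was 0.09, and Fos, Fosb and Egr1 were at least 2-fold higher in HE without overlap, with adjusted p of 0.918, 0.919 and 0.879. Fos had 29.9 and 63.6 FPKM in HE and 21.9 and 20.6 FPKM in Endo. Fosb had 13.5 and 35.6 FPKM in HE and 6.21 and 6.56 FPKM in Endo. Egr1 had 20.1 and 41.6 FPKM in HE and 10.9 and 15.2 FPKM in Endo. In all 3 genes HE 2 was more than 2-fold above HE 1. Without HE 2 none of the list was 2-fold higher without overlap. The list summed to 2170 FPKM in bone marrow HSC library 1 and 380 FPKM in library 2, and both libraries enter the shared spread behind these adjusted p. Jun and Junb had log2 fold changes of 0.14 and -0.11. Of 12 heat shock genes 11 had a lower mean in HE. Hspa1b, an inducible Hsp70 gene with a near-identical neighbor, had 8.78 and 12.2 FPKM in HE and 35.6 and 14.6 FPKM in Endo. Hypoxia and glycolysis genes had a median of -0.07, which was 0.18 without HE 2, and Gapdh had a log2 fold change of -0.04 (95% interval -0.58 to 0.49). The 16 expressed imprinted genes, which control embryonic growth, had a median of 0.27. Meg3, a noncoding RNA of the Dlk1 locus, had 224 and 239 FPKM in HE and 68.1 and 148 FPKM in Endo. Igf2, the fetal growth factor, had 1694 and 1479 FPKM in HE and 1441 and 1374 FPKM in Endo. Neural genes had a median of 0.60 over 16 genes, 5 of which passed the floor in HE alone, with 2 at least 2-fold higher and 0 called. Without HE 2 the median was 0.27, and the 2-fold count was 0 without HE 2 and 0 without Endo 1.

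Ranked by size alone, the largest differences were mostly in short RNAs. Among genes with a mean of at least 10 FPKM and no overlap, the 10 with the lowest log2 fold change were 6 snoRNAs, 1 miRNA, 1 snRNA, 1 pseudogene and the predicted gene Gm10139, from AC127366.1 (-6.53) and SNORA3 (-5.00) to Gm10139 (-3.21), and none was called. SNORA9, a small nucleolar RNA, was called as higher, with 11.7 and 22.2 FPKM in HE, and was listed at 0 in both Endo libraries. Poly(A) selection does not capture such RNAs evenly and a fragment of a short gene has a large weight in FPKM, so these values are uncertain. Those with the highest log2 fold change included SNORA9, SNORA73, Snora73a, Acta2, Actc1, Col1a1, Cldn6, Tac2 and Hand1. Tac2, a tachykinin precursor, had 73.3 and 35.02 FPKM in HE and 4.06 and 20.4 FPKM in Endo. Hand1, a bHLH factor of heart, lateral mesoderm and umbilical vessels, had 58.8 and 40.5 FPKM in HE and 4.75 and 23.95 FPKM in Endo. In Tac2 and Hand1 both HE libraries were above both Endo libraries, and adjusted p was 0.357 and 0.293.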

How the data were processed

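FPKM values per gene were taken as deposited by the authors. Their methods and submission notes name TopHat on build mm9, unique reads, Ensembl genes of a stated release, Subread featureCounts, edgeR and Cufflinks, with no tool versions, and do not say which of them made the FPKM. Read length is given differently in the labels and the methods, and strand is not stated. Gene IDs were annotated with GENCODE M1 (37038 of 37820 matched). Genes with at least 1 FPKM in at least 2 of 11 libraries (14708) were fitted as log2(FPKM + 1) with limma 3.58.1 (lmFit, eBayes with trend) in R 4.3.3 over 5 populations. Figures were drawn with matplotlib 3.10.9, and tables were made with pandas 2.3.3 and numpy 2.4.6 under Python 3.11.15. The procedure was tested on simulated data. Read depth is unknown, and the summed FPKM was 693418 and 628205 in HE, 789161 and 645078 in Endo, and 569851 to 789161 over all libraries. Named genes were the called genes, the sort markers, the 10 largest differences in each direction and the extreme and most abundant members of 32 gene lists, and other genes were added as examples after their values were seen. Genes and lists were chosen with earlier results of these data known, so they are no independent evidence. Alternatives were other pseudocounts, filters, scalings, sample sets, thresholds, a replicate block and leaving out each library. Promoters were RefSeq windows of build GRCm38.p6 and their coordinates are not mixed with the mm9 gene positions. Some genes met by these rules are not reported here, and protein sequences were not analysed here.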

Additional observations from a re-analysis of the deposited data

How the results depend on the processing

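The 19 calls depended on the settings. There were 10 calls with a pseudocount of 0.1, all higher in HE (9 among the expressed genes, 4 shared with the 19), and 31 without the filter (30 among the expressed genes). There were 0 with only the 4 HE and Endo libraries in the fit (280 when p was left unadjusted) and 2 with only the 7 libraries of HE, Endo and pre-HSC. Fits of 4 libraries have no separate F test. When those 4 libraries were filtered within themselves, an alternative chosen after seeing the data, there were 33, and without p adjustment, also chosen afterwards, 336 (330 among the expressed genes). At an adjusted p under 0.01 there were 8. Leaving out each library in turn gave 2 to 27 calls, the lowest without Endo 1, with 10 without either fetal liver library and 12 without either bone marrow library. Replicate numbers are shared by the populations, but with 2 numbers no pairing was established: across genes, HE 1 minus HE 2 correlated with Endo 1 minus Endo 2 at r = 0.156, and a fit with the replicate number as a block gave 11 calls, 10 of them shared. The 307 genes at least 2-fold higher without overlap became 670 with a pseudocount of 0.1 and 484 with 0.5, and 184 to 590 without each library. The 57 lower became 103 with a pseudocount of 0.1 and 90 with quantile normalization, and 63 to 132 without each library. The expressed genes numbered 13543 at a floor of 0.5 FPKM and 10951 at 2 FPKM. Of single genes, Kit had a log2 fold change of -0.13 without Endo 1 and -0.036 without HE 2 and reached 0.33 without Endo 2, and Xist had 0.043 with equal totals. The causes were not tested. The called genes kept their side of the threshold in 226 of 418 alternatives.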
